A study of Mus musculus with 6 samples.

Results

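The last 10 Mb of each mouse autosome, away from the centromere, were examined for trimethylation of lysine 27 of histone H3 (H3K27me3) in male germ cells with and without Ezh2. Members were all MACS2 peaks and all hiddenDomains bins centred in these 10 Mb on 17 autosomes. Chromosomes 4 and 10 were left out of the set. The end of a chromosome was taken as the last mm9 position called in any of the 8 lists, and the rest of the chromosome as everything from its first called position up to the last 10 Mb. The distal ends held 3747 and 3755 of 32271 and 31863 MACS2 peaks in the control libraries, and 5123 and 3897 of 42363 and 32094 in the mutant libraries. They held 31067 and 31787 of 266948 and 271287 hiddenDomains bins in the controls, and 30441 and 26160 of 254302 and 223219 in the mutants. That is 11.6% to 12.1% of the peaks and 11.6% to 12% of the bins of a library, counted over all its chromosomes. The distal ends span 170 Mb of sequence, against 1961 Mb in the rest of the same 17 autosomes. These shares and lengths thus have unlike bases.

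Spermatogenic cells of mice aged 6 weeks, on a mixed background, were profiled by ChIP-seq (sequencing of DNA pulled down with an antibody), here an Abcam antibody to H3K27me3. Controls were MvhCre;Ezh2fl/+ (2 libraries) and mutants were MvhCre;Ezh2fl/fl (2 libraries), so that both groups carried the Cre recombinase and at least 1 floxed allele. The Cre was driven by Mvh, a germ cell gene, so only germ cells were meant to lose Ezh2. Testis cells were dissociated with enzymes and passed through Percoll and strainers, which left a mixture of spermatogenic stages at a stated purity of 90%. The labels do not say whether the 2 libraries of a genotype are from different animals, so p-values measure only the spread between these libraries, which may be technical.

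H3K27me3 is deposited by PRC2, a Polycomb complex in which EZH2 or its paralog EZH1 is the enzyme. The mark is typical of the CpG-rich promoters of silent developmental genes, where it can spread over whole gene clusters such as the Hox clusters. Mouse autosomes have their centromere at one end, so each has a single long arm, and its far end is the distal telomere. The distal part of chromosome 7 is known for imprinted genes such as Igf2 and H19, and that of chromosome 2 for the imprinted Gnas locus; no call was matched to these genes here. The title of the series names EZH1 as a safeguard of PRC2 function in these cells, and the comparison of genotypes asks what H3K27me3 remains when EZH2 is removed.

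The lists hold positions and, for the bins, a display score, so they say where the mark was called and not how high it was. Read depth is unknown, and a deeper library gives more and wider calls. The sources used here do not give the control track behind each list, so a difference of genotype and a difference of control track cannot be told apart. In a mixed population, fewer marked cells and less mark per cell cannot be told apart either. By MACS2 the first mutant library stood apart from the other 3: it had 42363 peaks against 31863 to 32271 in the others, while its bin list was shorter than those of both controls. By bins the second mutant library had the shortest list, with 223219 bins against 254302 to 271287 in the others. Values below are therefore given for each library, in the order control 1, control 2, mutant 1 and mutant 2, and by both callers. Coverage is the length under calls in kb per Mb of chromosome.

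Called H3K27me3 was denser at the distal ends than in the rest of the same chromosomes in all 4 libraries. MACS2 peaks covered 47.9, 49.6, 60.8 and 46.6 kb per Mb of the distal ends, against 25.7, 26.7, 31.0 and 24.5 kb per Mb of the rest. The distal ends were thus covered 1.87, 1.86, 1.96 and 1.90 times as densely. Bins called by hiddenDomains, a caller made for broad marks, covered 36.5, 37.4, 35.8 and 30.8 kb per Mb against 20.5, 20.8, 19.4 and 17.1 kb per Mb, which gave ratios of 1.78, 1.79, 1.85 and 1.80. The 4 libraries therefore lay close together in this ratio although their total calls differed. In length, the distal ends held 8.15, 8.43, 10.3 and 7.92 Mb of MACS2 coverage, between 12.1% and 12.6% of all that the autosomes held.

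Both genotypes showed this distal excess, and its size did not separate them under all settings. The mean MACS2 ratio was 1.86 ± 0.01 in controls and 1.93 ± 0.04 in mutants (SD, n = 2 each), a difference of 0.07 (two-sided exact permutation test, p = 0.33). For bins the means were 1.79 ± 0.01 and 1.82 ± 0.04, a difference of 0.03 (exact permutation test, p = 0.33). With 2 libraries against 2 no p below 0.33 is possible, and after adjustment over the 7 exact tests made here both values were 0.47. Without the first mutant library the ratio differences were 0.04 and 0.007. As a median over chromosomes the MACS2 difference was -0.010. For bins the second mutant library lay above both controls in the pooled ratio (1.795 against 1.794 in control 2), but below control 2 with bins of score 1000 only (1.790 against 1.794) and without chromosome 15 (1.606 against 1.607). Densities themselves went in opposite directions by caller. The mutant mean was 4.92 kb per Mb above the control mean for MACS2 (exact permutation test, p = 1), which became -2.16 kb per Mb without the first mutant library. For bins the difference was -3.68 kb per Mb (exact permutation test, p = 0.33), with both mutants below both controls.

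The excess lay mainly in the number of peaks and less in their width. There were 22.0, 22.1, 30.1 and 22.9 peaks per Mb at the distal ends and 12.3, 12.2, 16.2 and 12.2 in the rest. Median peak widths were 1520, 1555, 1285 and 1291 bp at the distal ends and 1468, 1551, 1220 and 1309 bp in the rest. Distal peaks of both mutants were narrower than those of both controls, with a difference of -249.5 bp between the means (exact permutation test, p = 0.33), and the gap between distal and rest widths overlapped between genotypes (exact permutation test, p = 1). Peaks under 1 kb made up 34.3% and 33.1% of distal peaks in controls and 38.9% and 39% in mutants. Peaks wider than 5 kb were 7.18%, 8.36%, 6.85% and 6.77% of distal peaks, and between 12 and 14 distal peaks per library were wider than 20 kb.

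Coverage did not climb steadily to the very end of the chromosomes. Averaged over the 17 autosomes, the last 1 Mb held 33.0, 35.1, 38.1 and 32.9 kb of MACS2 coverage, the lowest of the 10 steps of 1 Mb in every library. The step between 7 and 8 Mb from the end had the highest mean, at 66.0, 71.5, 88.5 and 65.6 kb, to which a single dense step of chromosome 8, described further on, contributed. The median over chromosomes was instead highest between 2 and 3 Mb in control 1 and mutant 1 (54.0 and 71.4 kb) and between 4 and 5 Mb in mutant 2 (54.1 kb), and between 7 and 8 Mb in control 2 alone (53.7 kb). It was lowest in the last 1 Mb in all 4 libraries, at 16.6, 20.2, 16.0 and 15.8 kb. Across wider stretches the mean was 46.9, 47.9, 58.1 and 45.9 kb per Mb in the last 5 Mb and 48.9, 51.3, 63.4 and 47.3 kb per Mb between 5 and 10 Mb. It then fell to 40.8, 42.9, 51.4 and 38.5 kb per Mb between 10 and 15 Mb and 35.7, 36.9, 45.8 and 36.6 kb per Mb between 15 and 20 Mb. The choice of 10 Mb thus holds the densest 2 stretches of 5 Mb among the last 20 Mb, but the decline up to 20 Mb was gradual. It did not continue evenly beyond that. Between 24 and 25 Mb from the end the MACS2 mean was again 51.3, 54.0, 56.2 and 49.4 kb.

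**Figure D1:**
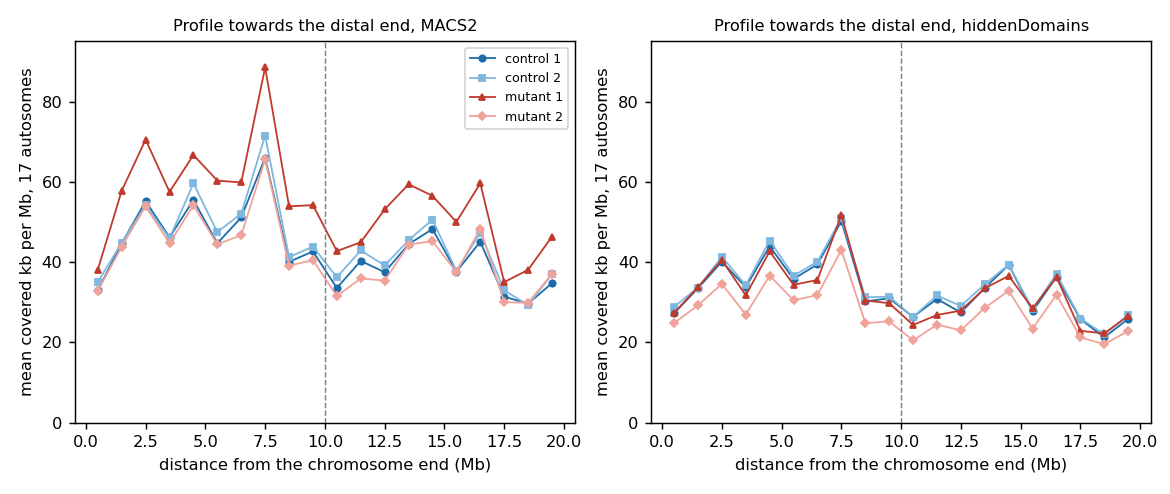
Mean covered kb per Mb (y axis) in 1-Mb steps from the chromosome end (x axis, Mb) over 17 autosomes, for MACS2 and hiddenDomains; each line is 1 library and the dashed line marks 10 Mb. In all 4 libraries mean MACS2 coverage is lowest in the last 1 Mb of the marked stretch and highest between 7 and 8 Mb, the position of the dense step of chromosome 8, and the first mutant library lies above the others for MACS2 only.

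Individual chromosomes ranged from no excess to several times the density of the rest. Chromosome 15 had the highest MACS2 ratio at 5.14, 5.12, 4.42 and 4.93, followed by chromosome 16 at 3.29, 3.34, 3.58 and 3.25 and chromosome 8 at 2.66, 2.62, 3.26 and 3.22. Bins gave the same leading 3 in the same order, with mean ratios of 5.41, 3.07 and 2.62. At the low end stood chromosome 13 at 1.02, 1.02, 0.859 and 0.958, chromosome 3 at 0.891, 0.875, 1.07 and 0.967, and chromosome 17 at 0.886, 0.937, 0.797 and 0.950. The ratio was above 1 in all 4 libraries on 13 of the 17 chromosomes by MACS2 and on 14 by bins, with all 13 shared. It was below 1 in all 4 libraries for chromosome 17 by MACS2 and for chromosome 3 by bins.

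**Figure D2:**
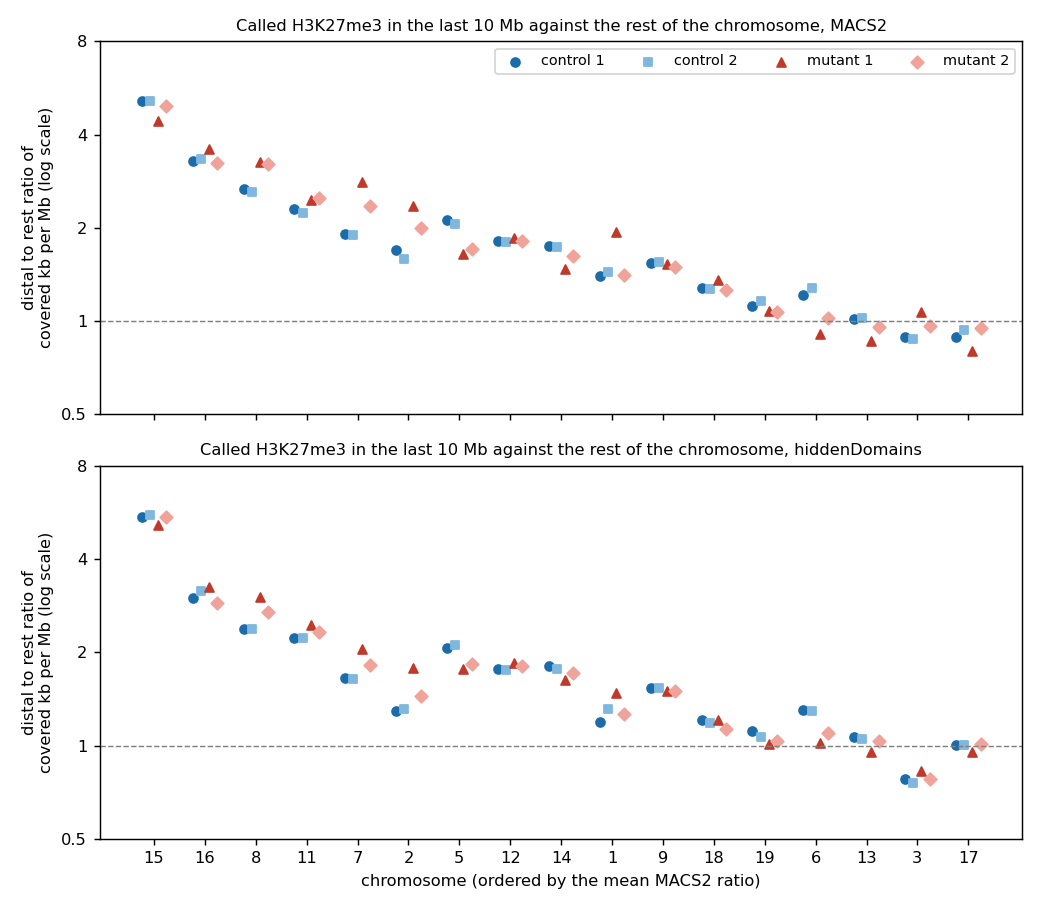
Ratio of covered kb per Mb in the last 10 Mb to the rest of the same chromosome (y axis, log scale) for 17 autosomes (x axis, ordered by the mean MACS2 ratio), MACS2 above and hiddenDomains below; each point is 1 library and the dashed line marks equal density. Chromosome 15 lies above 4 in all 4 libraries. By MACS2 chromosomes 13, 3 and 17 lie between 0.797 and 1.07. By hiddenDomains chromosome 3 lies below 1 in all 4 libraries, between 0.755 and 0.826.

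The distal block was not the densest of most chromosomes. When each autosome was divided into blocks of 10 Mb from its end, the distal block ranked first on chromosomes 8, 15 and 16 in all 4 libraries by both callers. On chromosome 7 it ranked first in the first mutant library alone, by MACS2. It was among the 3 densest blocks of its chromosome on 11 of 17 chromosomes in every library by MACS2, and on 9 to 11 by bins. On chromosome 3 it ranked between 8 and 10 of 16 blocks.

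Chromosome 15 carried the broadest domain of any distal end. The region chr15:102736937-102853462, 0.63 Mb from the last called position, was 116.5 kb wide after the 4 lists were joined, and MACS2 covered 111.3, 109.9, 115.1 and 108.5 kb of it. Bins covered 103.4, 106.3, 108.4 and 101.0 kb. All 4 libraries thus covered most of the domain, and the genotypes overlapped by both callers. No mm9 gene annotation was used, so the region was not matched to genes. As background, the RefSeq table of the later GRCm38 build places the 9 Hoxc genes, from Hoxc13 to Hoxc4, next to each other with 0 other protein-coding genes between them, 15 protein-coding genes before the end of the 776 on that chromosome. Hoxc genes encode homeobox transcription factors that pattern the body axis and are a textbook H3K27me3 target. The domain supplied 9.85%, 9.51%, 9.31% and 10.4% of the MACS2 coverage of that distal end. Leaving chromosome 15 out lowered the pooled ratio to 1.70, 1.69, 1.82 and 1.74 for MACS2 and to 1.60, 1.61, 1.68 and 1.61 for bins.

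Other wide domains called in all 4 libraries lay scattered over the distal ends. The region chr16:94069663-94103889 was 34.2 kb wide, with 29.0, 28.6, 30 and 32.3 kb covered by MACS2. On chr14:122859058-122891624, 32.6 kb wide, coverage was 30.6, 31.2, 31.1 and 30.8 kb. On chr17:86002402-86033992, 31.6 kb wide, it was 28.4, 28.9, 30 and 31.5 kb, so that a chromosome with a MACS2 ratio below 1 still held a broad distal domain. The fifth, chr8:123397303-123427612, was 30.3 kb wide and had 24.5 and 24.6 kb in controls against 28.7 and 26.3 kb in mutants. By MACS2 both mutants thus covered more than both controls on the domains of chromosomes 16, 17 and 8, while the genotypes overlapped on that of chromosome 14, and by bins they overlapped on all 4. The share of all shared regions with such an order is not given here, so these 4 domains do not show a general widening. The widest shared region of a distal end ranged from 9.15 kb on chromosome 6 to the 116.5 kb on chromosome 15, with a median of 23.9 kb over the 17 ends.

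Domains sat between long stretches without any call. On chromosome 2 nothing was called in any of the 8 lists over 3107 kb at chr2:174745432-177852000, and the share of a distal end called in any list ran from 3.47% on chromosome 3 to 16.1% on chromosome 15. Among the 170 steps of 1 Mb that make up the distal ends, 4 held no MACS2 call in any library. The densest was chr8:123210008-124210007, where MACS2 covered 249.9, 260.4, 422.1 and 301.7 kb. Next came the last 1 Mb of chromosome 15, with 238.7, 243.3, 274.3 and 240.0 kb.

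By MACS2, 5 chromosomes differed between genotypes in how strongly their distal end stood out. The log2 of the distal to rest ratio was compared in all 19 autosomes with limma, and an adjusted p under 0.05 was called (Benjamini-Hochberg). It was called higher in mutants on chromosomes 7, 2 and 8 and lower on chromosomes 6 and 5. These are 3 and 2 of the 17 ends, beside 21.1% called higher and 10.5% called lower over all 19 autosomes. At an unadjusted p under 0.05, 4 ends were higher and 3 lower, beside 26.3% and 15.8%. None passed with bins (limma, lowest adjusted p 0.0524), where 2 were higher and 2 lower at an unadjusted p under 0.05, 10.5% of the autosomes in each direction. The 5 chromosomes had the same direction by both callers.

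On chromosome 7 the MACS2 ratio was 1.91, 1.89, 2.82 and 2.36, and the mutants exceeded the controls by 0.44 ± 0.10 on the log2 scale (SE from limma; adjusted p = 0.0298). Both mutants lay above both controls. By bins it was 1.65, 1.64, 2.04 and 1.82 (log2 difference 0.23, adjusted p = 0.107). Distal density was 50.6, 52.1, 91.8 and 60.3 kb per Mb while the rest held 26.5, 27.5, 32.5 and 25.6, so by MACS2 the end was denser in the second mutant library than in controls while the rest was not. Bin density of the end was 34.7, 35.5, 42.0 and 33.3 kb per Mb, and of the rest 21.0, 21.7, 20.6 and 18.2. By bins the second mutant library was therefore below both controls at the end as well, by less than in the rest.

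On chromosome 2 the MACS2 ratio was 1.70, 1.59, 2.35 and 1.99 (log2 difference 0.40 ± 0.10, limma, adjusted p = 0.0331), and by bins 1.29, 1.31, 1.79 and 1.44. The MACS2 densities of its end were 49.4, 47.4, 84.4 and 57.3 kb per Mb, and the bin densities 29.9, 30.8, 39.6 and 28.3, with the second mutant again below the controls by bins. By MACS2 both mutants were above both controls in 7 of its 10 steps of 1 Mb and in 8 of 10 on chromosome 7, and below in 0 steps of either. By bins they were above in 2 and below in 0 on chromosome 2, and above in 1 and below in 2 on chromosome 7. Chromosomes 2 and 7 were named because of their ratios, which rest on the same coverage. Their step counts describe that difference and lend it no further support. Over all autosomes 17.1% of such steps had both mutants above by MACS2 and 35.7% had both below. In the 170 distal steps the counts were 34 above and 50 below. By bins they were 5 above and 102 below, against 3.2% and 59.9% over all autosomes, so by bins the distal ends as a whole were close to the background.

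On chromosome 8 the MACS2 ratio was 2.66, 2.62, 3.26 and 3.22 (log2 difference 0.29 ± 0.05, limma, adjusted p = 0.0211). By MACS2 the rise lay away from the tip. Between 5 and 10 Mb from the end MACS2 covered 102.5, 106.5, 171.0 and 125.6 kb per Mb, while in the last 5 Mb it covered 38.2, 37.6, 39.6 and 31.9. Bins gave ratios of 2.38, 2.39, 3.02 and 2.70. Between 5 and 10 Mb they covered 70.7, 72.9, 92.5 and 71.6 kb per Mb, with the second mutant library between the controls. Bin density of the whole end was 49.5, 50.6, 57.5 and 46.3 kb per Mb, so by bins only the first mutant library was denser there than the controls. With the distal end set to 5 Mb the log2 difference of the ratio turned to -0.22 by MACS2 (adjusted p = 0.0682) and -0.22 by bins (adjusted p = 0.0498).

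The chromosome 5 ratio moved the other way, with MACS2 ratios of 2.12, 2.05, 1.65 and 1.71 (log2 difference -0.31 ± 0.05, limma, adjusted p = 0.0211). By MACS2 the end held 70.9, 72.1, 68.7 and 55.5 kb per Mb, and the rest 33.5, 35.1, 41.7 and 32.4. In the first mutant library the rest was thus denser than in both controls, while the end was only slightly below them. The last 5 Mb of chromosome 5 held 110.0, 111.9, 99.5 and 83.8 kb per Mb by MACS2 and 82.4, 86.1, 68.2 and 60.1 by bins, with both mutants below both controls for each caller. By bins both mutants were below both controls in all 10 of the 1-Mb steps of this end, beside 59.9% of steps over all autosomes. By MACS2 they were below in 5 of the 10 and above in 0, beside 35.7% and 17.1%. Chromosome 5 was named because of its ratio, which rests on the same coverage, so these step counts only describe that difference. On chromosome 6 the MACS2 ratio fell from 1.21 and 1.28 in controls to 0.904 and 1.02 in mutants (log2 difference -0.37 ± 0.08, limma, adjusted p = 0.0298). The MACS2 density of its end was 26.8, 28.9, 26.3 and 22.6 kb per Mb, and of the rest 22.2, 22.6, 29.0 and 22.1. Here too the first mutant library had a denser rest than both controls and an end only slightly below control 1. Bins gave ratios of 1.30, 1.29, 1.02 and 1.10. Bin density of the end was 23.1, 22.6, 17.9 and 16.2 kb per Mb, and of the rest 17.8, 17.5, 17.5 and 14.7.

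Changing the length of the end changed which chromosomes were called. With ends of 5 Mb, chromosomes 2, 5 and 6 were called by MACS2 in the same direction, and chromosome 7 was not (limma, log2 difference 0.24, adjusted p = 0.0536). With ends of 20 Mb, chromosome 5 was not called (log2 difference -0.13, adjusted p = 0.0661). All 5 differences kept their direction when any 1 library was left out. None remained called when control 1 or control 2 was left out (lowest adjusted p 0.0883 and 0.213), where the lone control is assumed to vary as the mutants do. All 5 were also called without mutant 1 (8 chromosomes called in all) and without mutant 2 (14 called), but those fits take their spread from the 2 closely alike controls (SE 0.04 for each chromosome, against 0.15 without a control), so that these calls lend the 5 no support. Both mutants were above both controls on 5 of the 17 ends by MACS2 and on 6 by bins, with all 5 shared, beside 31.6% and 36.8% of the 19 autosomes. They were below both controls on 7 ends by each caller, the same 7, beside 42.1% and 36.8%.

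**Figure D3:**
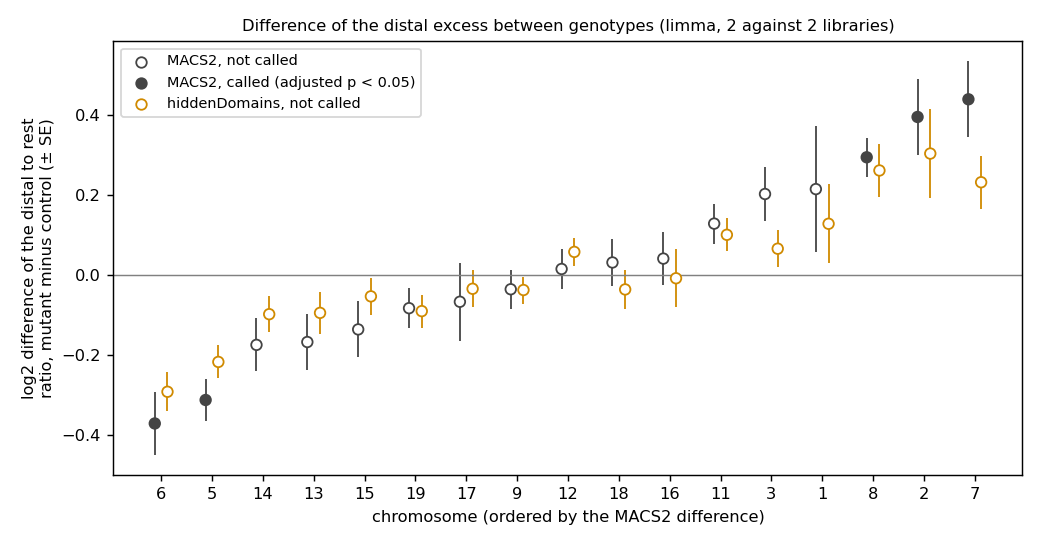
Difference in the log2 distal to rest ratio between mutants and controls (y axis, with limma SE) for 17 autosomes (x axis, ordered by the MACS2 difference); filled points passed an adjusted p of 0.05. Chromosomes 7, 2 and 8 are above 0 and chromosomes 6 and 5 below 0 for MACS2, and the hiddenDomains points of these 5 lie on the same side without passing.

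**Figure D4:**
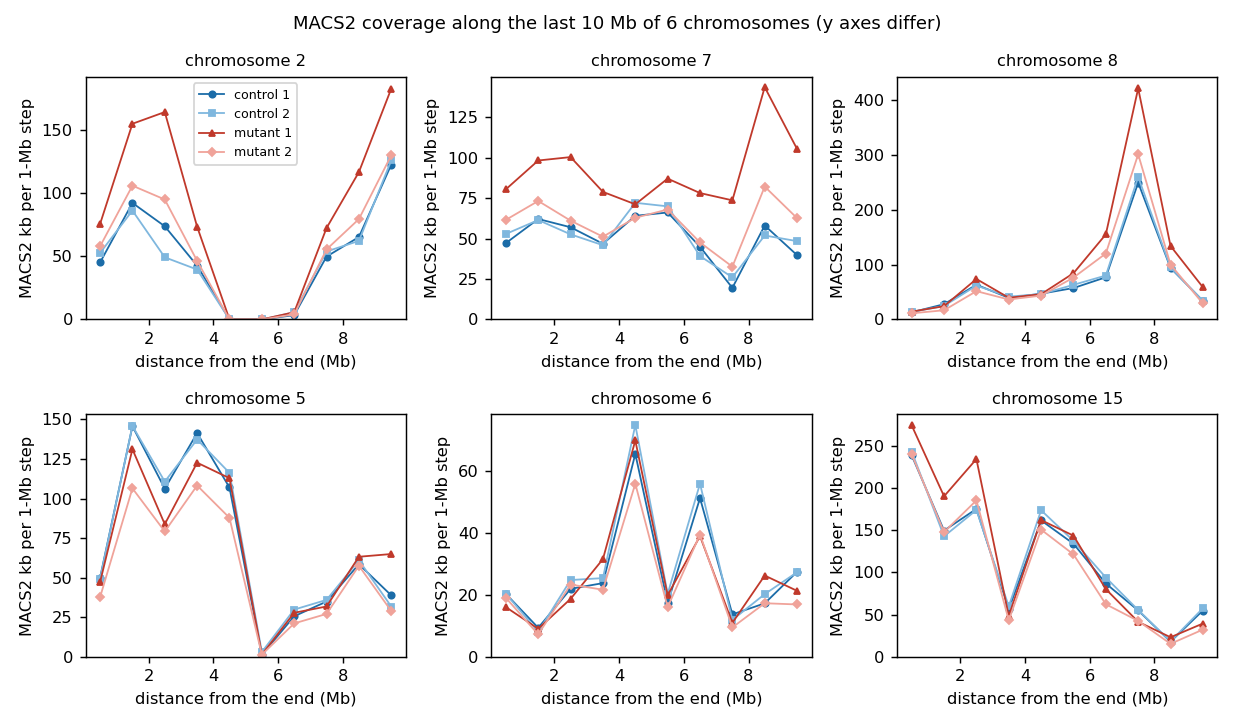
MACS2 coverage (y axis, kb per 1-Mb step; axes differ) against distance from the end (x axis, Mb) for the 5 called chromosomes and chromosome 15; each line is 1 library. On chromosome 8 the step between 7 and 8 Mb reaches 422.1 kb in mutant 1, and on chromosome 2 no library has a call between 4 and 6 Mb.

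Set beside all blocks of 10 Mb along the autosomes, the distal blocks did not form a group apart. Block densities on a log2(kb per Mb + 1) scale were compared with limma over 243 blocks. By MACS2 0 of 17 distal blocks were called, with 2 higher and 0 lower at an unadjusted p under 0.05. Over all blocks 0.412% were called in each direction, and 5.76% were higher and 4.53% lower unadjusted. The median log2 difference was 0.02 over distal blocks and -0.01 over all. By bins 7 distal blocks were called lower (chromosomes 6, 13, 5, 14, 18, 19 and 17) and 0 higher, beside 55.1% and 0.823% of all blocks, and 9 and 0 were so unadjusted, beside 60.5% and 1.23%. The medians were -0.22 over distal blocks and -0.21 over all, so the lower bin density of the mutants was seen along the autosomes and not at the distal ends alone.

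Once the libraries were scaled to the same autosomal covered length, 5 distal blocks were called higher by MACS2 (chromosomes 7, 2, 8, 11 and 1) and 5 lower (5, 13, 6, 19 and 14), beside 16.5% and 38.7% of all blocks. Scaled bins gave 4 higher (7, 8, 2 and 11) and 3 lower (6, 5 and 13), beside 13.2% and 25.9%. Scaling moved the median of all blocks from -0.21 to -0.05 for bins and from -0.01 to -0.08 for MACS2. Chromosomes 7, 2, 8 and 11 were thus higher, and 5, 6 and 13 lower, by both callers after scaling. Chromosome 11, which also missed the threshold for its ratio, had scaled MACS2 densities of 90.6, 89.1, 101.7 and 104.4 kb per Mb. On chromosome 1 these were 29.0, 30.1, 39.6 and 29.5 kb per Mb, so that the second mutant library lay between the controls and the genotypes overlapped.

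In windows of 100 kb, with a mean of at least 1 kb covered, no distal window passed. For MACS2, 0 of 1062 distal windows were called in either direction, beside 0% of 10776 windows in all. At an unadjusted p under 0.05, 127 were higher and 126 lower, beside 8.95% and 12.2% of all windows. For bins, 0 of 903 were called (limma, lowest adjusted p 0.0559), beside 0% of 9183, and 28 were higher and 277 lower unadjusted, beside 2.48% and 27.6%. With totals scaled, 53 distal MACS2 windows were called higher and 32 lower, beside 3.54% and 2.29%, and 19 and 41 for bins, beside 1.76% and 3.65%. Those called higher by MACS2 included 8 of 85 on chromosome 7, 8 of 78 on chromosome 8, 7 of 64 on chromosome 2 and 10 of 75 on chromosome 11, where 0, 0, 0 and 2 were lower. Chromosome 5 had 0 higher and 4 lower of 76.

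The bin windows of lowest p show what such a local difference looked like. At chr7:143200001-143300000, bins covered 4.2, 4.2, 9.4 and 8.8 kb (log2 difference 0.96 ± 0.05, limma, adjusted p = 0.0559), and MACS2 peaks covered 8.30, 8.32, 25.4 and 20.6 kb of the same window. With scaled totals it passed by both callers (limma, adjusted p = 0.0246 and 0.0171). Next were chr2:180700001-180800000 with 5.0, 5.0, 6.4 and 6.0 kb and chr1:196400001-196500000 with 2.8, 2.8, 3.6 and 3.4 kb. Neither passed with or without scaled totals.

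The 3 windows of lowest p among those lower in mutants were as follows. On chr16:89600001-89700000 bins covered 5.8, 6.0, 2.2 and 2.0 kb (log2 difference -1.15 ± 0.06, limma, adjusted p = 0.0559). On chr5:150700001-150800000 they covered 5.2, 5.2, 2.0 and 2.2 kb, and on chr15:99600001-99700000 3.6, 3.6, 1.4 and 1.4 kb, both with the same adjusted p. These 3 passed with scaled totals (limma, adjusted p = 0.0246, 0.0273 and 0.0309). All these windows were picked by the p of the genotype difference, so the separation of the groups in them follows from the choice.

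Few distal regions were exclusive to 1 genotype. Joining the 4 MACS2 lists gave 6542 distal regions. Of these, 2300 (35.2%) were called in all 4 libraries, 290 (4.43%) in both controls and neither mutant (control-only), and 440 (6.73%) in both mutants and neither control (mutant-only). Over distal and rest regions together the shares were 35.9%, 4.84% and 6.01%. Of 4295 distal bin regions, 1817 (42.3%) were shared, 276 (6.43%) control-only and 152 (3.54%) mutant-only, beside 43.8%, 7.49% and 2.75%. The 2 callers thus disagreed on which exclusive class was larger. With the same number of widest peaks taken from each list, MACS2 gave 355 control-only (6.08%) and 324 mutant-only (5.55%) distal regions, against 7.30% and 4.74% in the rest. Shares lay near those of the rest in every class, and no test was made over regions, which are not replicates.

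Regions found in both controls were found again in both mutants in 80.3% of cases at the distal ends and 78.2% in the rest. In the other direction, 74.9% of distal regions found in both mutants were in both controls, against 78.0% in the rest. By bins these shares were 78.9% against 76.7%, and 88.3% against 90.7%. At the distal ends, then, the regions of controls were slightly more often kept and those of mutants slightly less often present in controls, by both callers. The overlap of 2 libraries in base pairs over the base pairs covered by either (Jaccard index) reached 0.686 for the pair of control libraries over distal MACS2 calls, 0.575 for the mutant pair, and 0.521 to 0.588 for pairs of different genotype. For bins it was 0.799, 0.724 and 0.652 to 0.691. By MACS2 the mutant pair lay within the range of the mixed pairs, whereas by bins it lay above them. In all 6 pairs and by both callers the distal value was below that of the rest.

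Exclusive regions were narrow. Shared distal regions had a median width of 3189 bp, control-only ones 1136 bp and mutant-only ones 1346.5 bp (2915, 1030 and 1325 bp in the rest). Shared regions join calls of all 4 libraries and exclusive ones those of 1 genotype. Part of the difference in width thus follows from the joining. The widest control-only region, chr15:98401722-98405793, was 4.07 kb wide and had 2.81 and 2.09 kb of peaks in controls, with bins in both controls and neither mutant. The widest mutant-only region, chr8:123676882-123685537, was 8.66 kb wide, with 8.66 and 1.94 kb in mutants and bins of 1.8 and 0.6 kb in mutants alone. It lies within the densest 1 Mb of chromosome 8 described above. Next in width was chr2:179949207-179955270 at 6.06 kb, with 5.43 and 1.98 kb of peaks in mutants, and bins there covered 0.2 kb in control 2 and 0.4 kb in mutant 1. Bins showed the same pattern of libraries at 90 of the 290 control-only regions (31.0%), 30 of the 440 mutant-only regions (6.82%) and 1740 of the 2300 shared ones (75.7%). In the rest the shares were 33.5%, 6.19% and 77.7%.

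Exclusive regions were unevenly spread over the chromosomes. Mutant-only regions outnumbered control-only ones by MACS2 on 11 of 17 distal ends, beside 12 of 17 in the rest of the same chromosomes, with the widest margins on chromosome 7 (64 against 10), chromosome 2 (57 against 6), chromosome 8 (35 against 15), chromosome 11 (44 against 16), chromosome 1 (31 against 11) and chromosome 3 (20 against 7). In the rest of chromosomes 7, 2 and 8 the counts were 159 against 107, 233 against 166 and 153 against 137. In the rest of chromosomes 11 and 1 they were 215 against 109 and 187 against 150, and on chromosome 3 they were 83 against 165. Control-only regions were more numerous on chromosome 5 (35 against 16), chromosome 6 (18 against 11), chromosome 13 (17 against 7), chromosome 14 (18 against 10), chromosome 17 (10 against 4) and chromosome 19 (22 against 12). They also led in the rest of chromosomes 13 (146 against 122) and 19 (86 against 66), while mutant-only regions led in the rest of chromosomes 5, 6, 14 and 17. By bins control-only regions led on these 6 distal ends as well, with 33 against 7 on chromosome 5 and 18 against 0 on chromosome 14. In the rest of chromosomes 5 and 14 they also led, with 165 against 98 and 98 against 37. Control-only bin regions led on 12 of 17 distal ends and on 17 of 17 in the rest. A lead as such was therefore not particular to these ends. Bins gave 13 mutant-only regions against 7 control-only at the end of chromosome 7, 26 against 17 on chromosome 8, and 15 against 13 on chromosome 2. In the rest of these chromosomes control-only bin regions led, with 42 mutant-only against 110, 37 against 141 and 51 against 180. At the ends of chromosomes 11 (14 against 18) and 3 (2 against 9) the order by bins was the reverse of that by MACS2. The rest of these held 68 against 130 and 25 against 164 by bins. These counts rest on the same calls as the ratios and are a description of them.

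**Figure D5:**
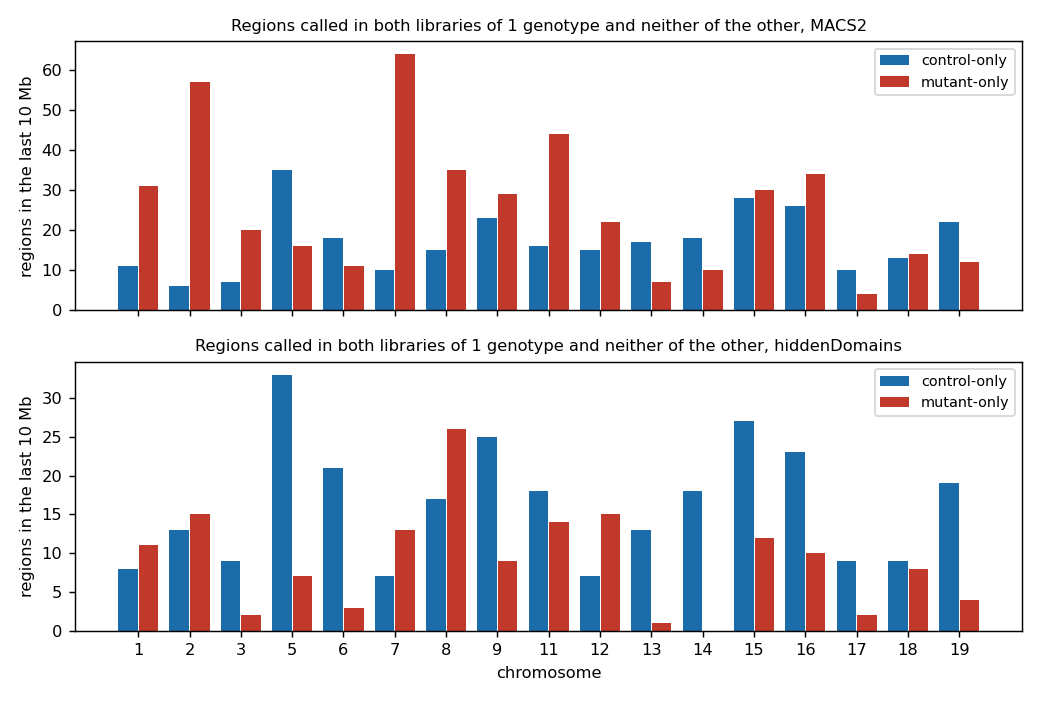
Number of distal regions (y axis) called in both libraries of 1 genotype and in neither of the other, by chromosome (x axis), MACS2 above and hiddenDomains below. By MACS2 chromosomes 2 and 7 have 57 and 64 mutant-only regions, and on chromosome 5 control-only regions lead for both callers.

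The callers overlapped unequally. Bins lay in peaks for 96.1%, 96.3%, 97.1% and 96.9% of their length at the distal ends and for 95.97%, 96.4%, 96.9% and 96.6% in the rest, with the distal share higher in 3 of the 4 libraries. Peaks lay in bins for 73.3%, 72.6%, 57.2% and 64.0% of their length at the distal ends and for 76.7%, 75.3%, 60.5% and 67.6% in the rest. In each library this share was lower at the distal ends, and in both mutants it was lower than in both controls. Between 90.9% and 93.1% of distal bins carried the highest display score of 1000, for which the sources used here give no meaning.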

How the data were processed

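For each of the 4 ChIP libraries the authors deposited a MACS2 peak list and a list of 200-bp bins from hiddenDomains, both in mm9, per the file headers and the submitters' processing notes, which also name Bowtie, SAMtools and bedtools. The peak lists hold positions only, and the deposited bins carry a display score. The sources used here give no versions, thresholds, control tracks or read depth, so the precision of a call is unknown, and the 2 input samples were not analysed here.

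Touching calls of a library were joined. Peaks, bins, regions and windows were assigned to the distal ends by their centre, and coverage was counted in base pairs. For values per library the test was an exact permutation, two-sided. Chromosomes, blocks and windows were compared with limma 3.58.1 in R 4.3.3 over all autosomes (windows also over X and Y), with a pseudocount of 1 for densities and Benjamini-Hochberg adjustment. The limma step and the interval counts were tested on simulated data. Blocks at the proximal end under 5 Mb were left out.

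Regions were named by rule: the 5 widest shared regions, the widest of the exclusive ones, the 3 bin windows of lowest p in each direction, and the 3 chromosomes of highest and lowest ratio. The called chromosomes, end parts and densest steps were added after their values were seen. Members, lists and tests were chosen with earlier results of these data known. Alternatives changed the length of the ends, the rest, the chromosomes, broad or low-scoring calls, scaling, pseudocount, window, overlap, merging, a replicate block and each library left out. Leaving out chromosome 15, and taking the same number of widest peaks for ratios by chromosome and for region classes, and bins of score 1000 only for ratios by chromosome, were chosen after seeing the data. No mm9 sequence or annotation was used, so no sequence is printed.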

Additional observations from a re-analysis of the deposited data

How the results depend on the processing

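The distal excess was present under every alternative run for the pooled ratio. The mean ratio of the 4 libraries (1.90 for MACS2, 1.81 for bins) was 1.77 and 1.72 with ends of 5 Mb, 1.80 and 1.70 with 20 Mb, 1.95 and 1.85 with the rest from position 1, 1.83 and 1.75 without its first 10 Mb, 1.99 and 1.89 over all 19 autosomes, 1.74 and 1.62 without chromosome 15, and 1.64 and 1.55 as the median over chromosomes. Without regions over 20 kb the mean for bins was 1.77. The difference between genotypes in the MACS2 ratio turned to -0.010 as a median over chromosomes, that in MACS2 density to -2.16 kb per Mb without mutant 1 (range -2.16 to 11.99 with 1 library left out), and that in bin density to 0.18 percentage points as a share of the covered length. The chromosome 8 ratio turned to -0.22 by each caller with ends of 5 Mb.

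Counts of called ends moved more. For the MACS2 ratio, 5 chromosomes were higher with 20 Mb and 4 were lower with 5 Mb or with 20 Mb. With 1 library left out 0 to 8 were higher and 0 to 6 lower. For bins, 1 was higher and 4 were lower with 5 Mb, 2 were lower with score 1000 only, and 0 to 6 were higher and 0 to 6 lower with 1 library left out. Scaling gave 5 higher and 5 lower distal blocks by MACS2 and 4 and 3 by bins. Leaving out 1 library gave 0 to 10 higher and 0 to 8 lower by MACS2, and 0 to 3 higher and 0 to 14 lower by bins. Scaled windows gave 53 higher and 32 lower by MACS2 and 19 and 41 by bins. Without a coverage minimum bins gave 3 higher and 51 lower of 1165 distal windows, beside 30 and 622 of 12962 in all. In bin windows of 500 kb 0 of 311 distal ones were higher and 36 lower, beside 4 and 403 of 3779 in all. Left-out libraries gave 378 to 650 control-only and 595 to 1850 mutant-only MACS2 regions, and 349 to 598 and 192 to 936 bin regions, since fewer lists are needed to call a region exclusive.

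The titles number libraries 1 and 2 in each genotype. Over windows the deviations of same-numbered libraries correlated at 0.03 for MACS2 and 0.04 for bins, so the numbers were not taken as pairs. With a replicate block the 5 chromosomes called by MACS2 stayed called. Bins gave 3 higher and 2 lower (limma, the same 5 chromosomes, adjusted p = 0.0485). By bins 2 of 17 distal blocks were lower, beside 79 of 243 blocks in all. The cause of these shifts was not tested. In all, 218 of 325 values under alternatives kept their direction and side of the threshold or stayed within the set margin. Depth limits what can be said of level: it is unknown, and absence of a call does not show absence of the mark.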
